A study of Mus musculus with 6 samples.

Results

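The 42 genes described here encode nucleolar proteins and factors that make ribosomes, and their messenger RNA was compared between control and Fat4 knockdown cells. They were taken by gene symbol from a list drawn up with earlier results of these data known, and all 42 were found among the 78317 mouse gene entries of the deposited table. The libraries came from MCEC, an immortalised mouse line derived from cardiac endothelium, in 2 groups of 3: control libraries labelled Wildtype, and libraries labelled ShFat4, which carry a short hairpin RNA against the atypical cadherin gene Fat4. A non-targeting hairpin in the controls, the number of hairpins or clones, and separate cultures behind the replicates are all points not given in the sources used here. For this reason p-values set the difference between the groups against the spread of these libraries only, and that spread may be technical. All 42 genes passed the filter on low counts.

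Ribosome production starts in the nucleolus, where RNA polymerase I transcribes the precursor of 3 of the ribosomal RNAs. Small nucleolar ribonucleoproteins (snoRNPs) of the box H/ACA and box C/D families guide pseudouridylation and ribose methylation of that precursor. The small subunit processome then folds and cuts the part that becomes the 40S subunit, while a separate set of factors assembles the 60S precursor. Many of these genes rise and fall together with cell growth, and the transcription factor Myc is a well-known activator of them.

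Of the 42 genes, 2 rose in the knockdown, Nop10 and Snu13, and none fell. The other 40 did not pass the threshold, which was an adjusted p under 0.05 in edgeR's quasi-likelihood test over 13372 genes (Benjamini-Hochberg). Over all tested genes 17.4% changed, 8.94% upward and 8.44% downward, and 26.1% changed in either direction among genes at least as abundant as the lowest of the 42. Of the changes over all genes 51.4% were upward with the scaling used here (TMM) and 32.9% with scaling by library size alone. The median log2 fold change (knockdown minus control) was 0.02 for the 42 genes and -0.01 for all tested genes, and -0.04 and -0.07 with library-size scaling. With the scaling used here 24 of the 42 were positive and 18 negative. Single values ran from -0.19 for Ncl to 0.27 for Nop10. The 95% interval of the change lay within 1.3-fold in either direction for 41 of the 42, the exception being Nop10, and within 1.5-fold for all 42. For all tested genes the corresponding shares were 49.6% and 74.2%. At an unadjusted p under 0.05, 3 of the genes were higher (Nop10, Snu13 and Npm1) and 1 was lower (Ncl).

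**Figure D1:**
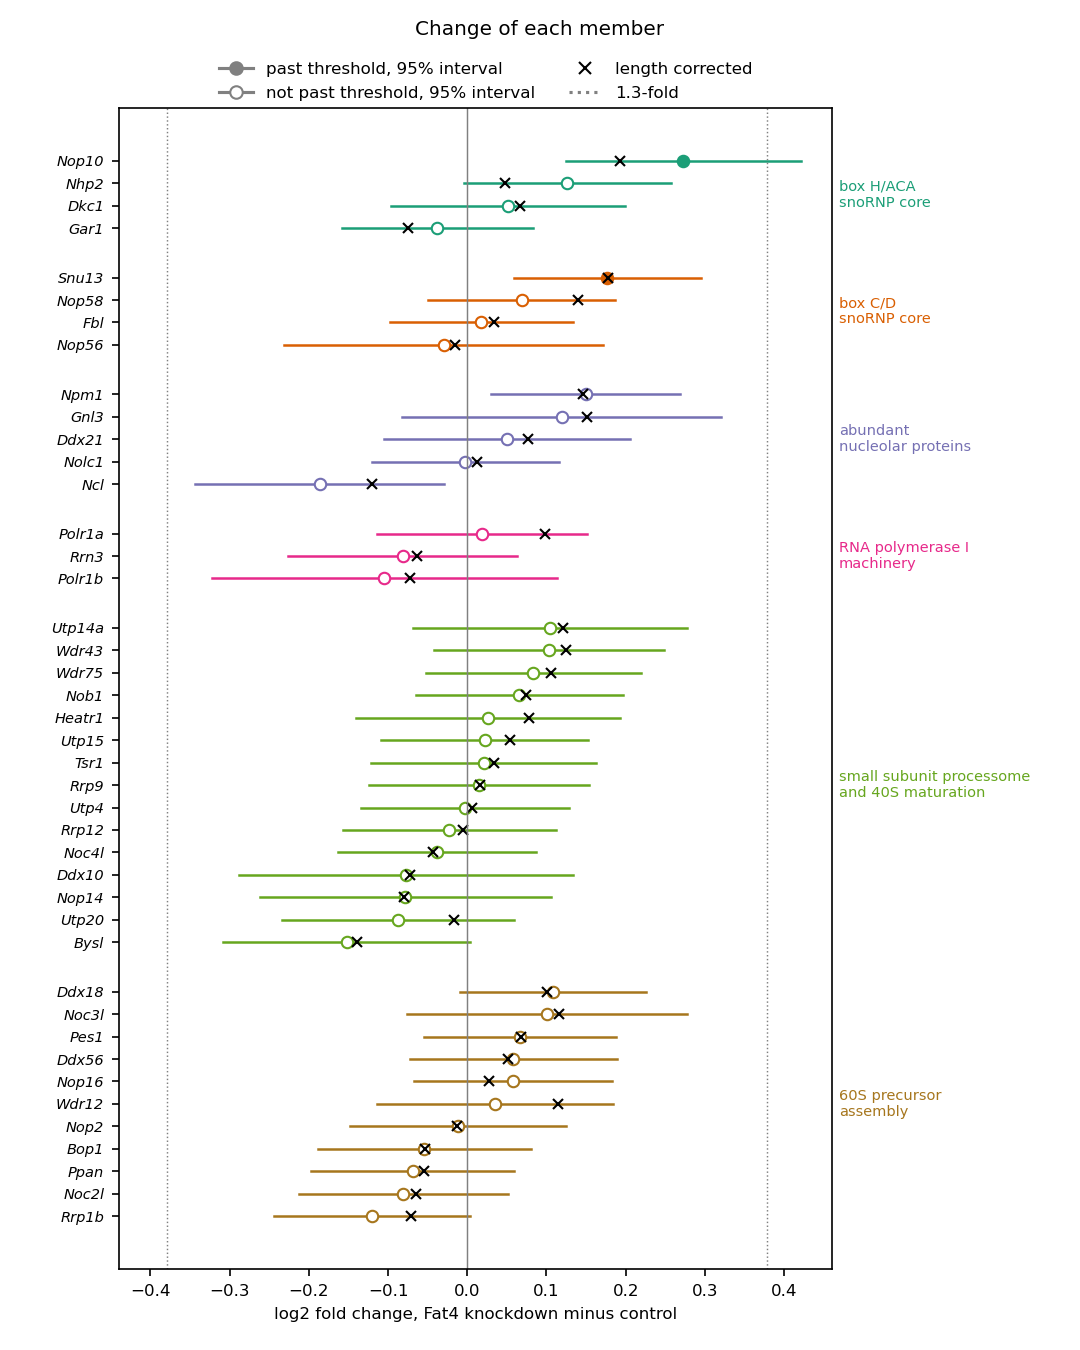
Log2 fold change of each of the 42 genes (horizontal axis, knockdown minus control), grouped by role, with 95% intervals as bars, filled circles for adjusted p under 0.05 and crosses for the length-corrected value. Only Nop10 and Snu13 are filled, and every interval but that of Nop10 stays between the dotted lines at 1.3-fold.

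Total counts were 10305810 to 11870091 per library, and the 42 genes together took 0.99% to 1.04% of them. The targeted gene Fat4, at counts of 10, 22 and 31.5 in the control and 8.5, 10 and 9 in the knockdown libraries, was lower in the knockdown (log2 fold change -1.17, SE 0.35, edgeR adjusted p = 0.033), although control replicate 1 lay within the knockdown range. Without 1 library the call on Fat4 held only in the fit without control replicate 1, and was lost without control replicate 2 or 3 or any single knockdown replicate, where edgeR adjusted p reached 0.205. It was also lost with GC and length corrected (edgeR adjusted p = 0.055) and by limma-voom (0.0674). Of 14 endothelial markers, 9 were under 1 CPM (counts scaled to library size) in every library, and Tie1, Vwf, Erg, Cldn5 and Emcn had no count at all (a count of 0 allows up to 3 counts in a library), so defining markers of the labelled cell type were largely absent. Of the 5 endothelial markers tested, Eng (26.3 CPM in control, log2 fold change -0.42, edgeR adjusted p = 0.0195) and Flt1 (7.61 CPM, -0.59, adjusted p = 0.00743) fell. The call on Flt1 held in all 6 fits without 1 library and that on Eng in 2 of them. Cd34 (52.5 CPM in control), Egfl7 (7.25 CPM) and Esam (1.99 CPM) did not pass the threshold. Sums over marker lists were scaled by library totals alone, without TMM. Summed over the 14 endothelial markers the level was 93.1 to 106 CPM in control and 82.5 to 89.8 CPM in knockdown libraries. That of 10 mesothelial markers was 1657 to 1813 and 1429 to 1474 CPM. Among the latter Upk3b, Lrrn4, Wt1 and Krt7 fell while Upk1b, Msln, Krt19 and the other 3 did not pass the threshold. The calls on Upk3b and Lrrn4 held in all 6 fits without 1 library, that on Krt7 in 1 and that on Wt1 in 0. Those on Wt1 and Krt7 were lost with the length correction (edgeR adjusted p = 0.0897 and 0.0653). Of all tested genes 8.94% were higher and 8.44% lower. Summed over 8 fibroblast markers the level was 2044 to 2177 CPM in control and 1522 to 1695 CPM in knockdown libraries, most of it Col1a1, which fell (log2 fold change -0.38, edgeR adjusted p = 0.000685), while Thy1 rose. In bulk RNA, a shift in the mixture of cells and a shift in RNA per cell cannot be told apart. The part of these differences in the values below was not tested.

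One feature of the libraries moved with the groups and bears on short genes such as Nop10. When the tested genes were split by exon length into 10 equal bins, the median log2 fold change was 0.17 in the bin of shortest genes and -0.10 in the bin of longest genes. The libraries differed one by one in the shortest bin, with median deviations from the gene means of 0.01, -0.09 and -0.17 in control replicates 1, 2 and 3 and of 0.10, 0.10 and 0.07 in the knockdown libraries. A correction that removes each library's own trend on exon length brought those medians to 0.01 and -0.01. The 42 genes had exon lengths of 1109 to 11955 bases and none lay in the shortest bin. After this correction 2 of them were still higher and none lower, against shares of 8.32% (higher) and 7.05% (lower) of all tested genes, and the median of the 42 was 0.03. When GC content was corrected together with length, none passed the threshold, against shares of 6.9% (higher) and 5.86% (lower) of all tested genes. The calls on Nop10 and Snu13 therefore held with the length correction and were lost with the joint one.

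**Figure D2:**
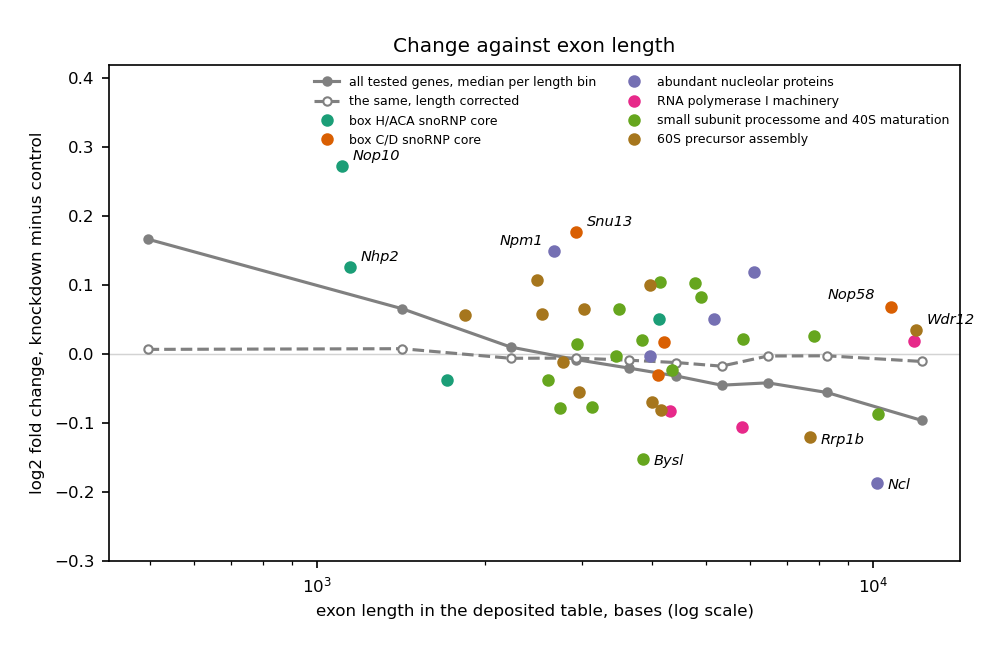
Log2 fold change of each of the 42 genes (coloured by role) against exon length in bases on a log axis, with the median per bin of all tested genes before (solid line) and after (dashed line) the length correction. Nop10 and Nhp2 are among the shortest of the 42, where the solid line is above 0, while Ncl is among the longest.

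The box H/ACA core proteins hold the guide RNAs that direct pseudouridylation, and the same 4 proteins also bind telomerase RNA. Nop10, the smallest of them, was the most abundant of the 4 per kilobase of exon, at 479 CPM per kilobase in control libraries. It (ENSMUSG00000027133, GRCm39 chr2:112092271-112093614, plus strand, 2 exons) stood at 582, 537 and 475 CPM in control replicates 1, 2 and 3 and at 676, 624 and 626 CPM in the knockdown libraries. All 3 knockdown values were above all 3 control values, and control replicate 3 was the lowest. The log2 fold change was 0.27 (SE 0.07, edgeR adjusted p = 0.0144), 0.19 with the length correction (adjusted p = 0.036) and 0.13 with GC and length corrected (adjusted p = 0.163).

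The call on Nop10 was lost when control replicate 2 (edgeR adjusted p = 0.0665), control replicate 3 (0.0794) or knockdown replicate 1 (0.0773) was left out, where the log2 fold change was 0.28, 0.20 and 0.23, and was kept in the other 3 such fits. Gar1, whose product binds the pseudouridine synthase subunit directly, stood at 321, 350 and 351 CPM in control and at 340, 326 and 331 CPM in knockdown libraries. The knockdown values of Gar1 lay inside the control range (log2 fold change -0.04, SE 0.06, edgeR adjusted p = 0.702). Nhp2, the RNA-binding subunit, had a log2 fold change of 0.13 that became 0.05 after the length correction, and Dkc1, the pseudouridine synthase itself, one of 0.05. Set against the geometric mean of Dkc1, Gar1 and Nhp2, Nop10 was at log2 ratios of 1.13, 1.08 and 0.91 in control and 1.37, 1.25 and 1.18 in knockdown libraries. This ratio was chosen after the values were seen and is given as a description only.

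**Figure D3:**
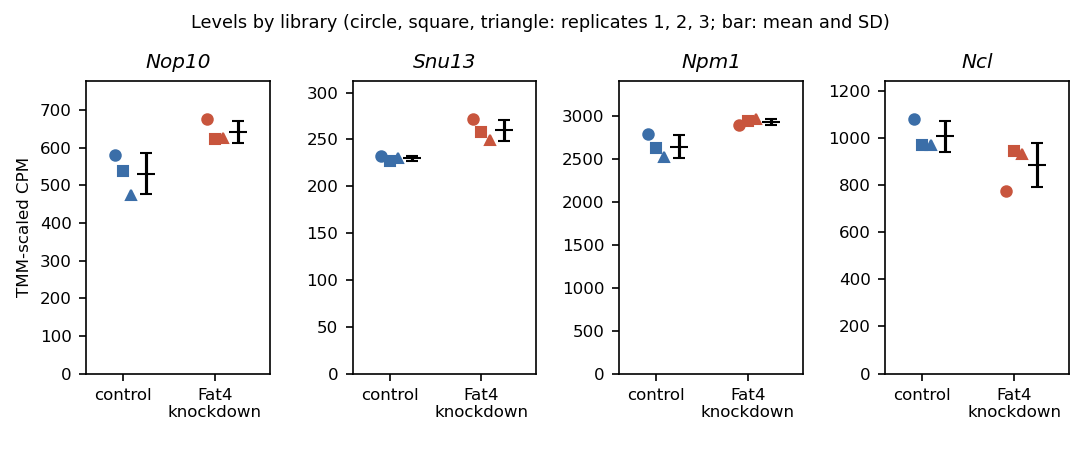
TMM-scaled CPM (vertical axes, from 0) of Nop10, Snu13, Npm1 and Ncl in each library, with the mean and SD of each group of 3 as bars. Knockdown values lie above all control values for Nop10, Snu13 and Npm1 and below them for Ncl, with steps that are small against the distance from 0.

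Box C/D snoRNPs carry the ribose methyltransferase fibrillarin. Snu13, the small protein that recognises the kink-turn of the guide RNA and is shared with the spliceosome, rose. The gene (ENSMUSG00000063480, GRCm39 chr15:81924726-81931799, minus strand) stood at 232, 227 and 230 CPM in control and 272, 257 and 249 CPM in knockdown libraries. The groups did not overlap, and the 3 control values were close together. The log2 fold change was 0.18 (SE 0.06, edgeR adjusted p = 0.039), 0.18 with the length correction (adjusted p = 0.0302) and 0.10 with GC and length corrected (adjusted p = 0.209).

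Snu13 passed the threshold in only 2 of the 6 fits that left out 1 library, those without control replicate 1 or knockdown replicate 3, and its edgeR adjusted p was 0.0929 without knockdown replicate 2, 0.0976 without control replicate 3, 0.145 without knockdown replicate 1 and 0.166 without control replicate 2. The log2 fold change of Snu13 in these 4 fits was 0.18, 0.18, 0.14 and 0.17. With scaling by library size alone the log2 fold change of Snu13 was 0.12 and the call was lost (edgeR adjusted p = 0.15). Fbl, which encodes fibrillarin and was the most abundant of the 4 per kilobase at 85.5 CPM, stood at 357, 355 and 367 CPM in control and 371, 351 and 371 CPM in knockdown libraries. Knockdown replicate 2 was the lowest of the 6 Fbl values, and the groups overlapped (log2 fold change 0.02, SE 0.05, edgeR adjusted p = 0.864).

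Nop56, a scaffold of the same particle, stood at 255, 225 and 190 CPM in control and 201, 235 and 221 CPM in knockdown libraries. The control values of Nop56 spread more widely than the knockdown values, which lay inside them (log2 fold change -0.03, SE 0.09, edgeR adjusted p = 0.867). Nop58, the partner scaffold with an exon length of 10758 bases, had a log2 fold change of 0.07, and 0.14 with the length correction (edgeR adjusted p = 0.0922). With GENCODE transcript lengths in place of exon lengths it was 0.17 and passed the threshold (edgeR adjusted p = 0.0365). The log2 ratio of Snu13 to the geometric mean of Fbl, Nop56 and Nop58, again chosen after seeing the values, was -0.71, -0.67 and -0.59 in control and -0.39, -0.55 and -0.57 in knockdown libraries.

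The sequences upstream of Nop10 and Snu13 are shown because these 2 genes passed the threshold. Each is the 250 bases before the RefSeq start site on GRCm38.p6, read 5′ to 3′ along the gene, and capitals mark the ETS core, CCGGAAG or its other strand CTTCCGG, the core of sites bound by ETS transcription factors. Nop10 is at chr2:112261676-112261925 on the plus strand and Snu13 at chr15:82047599-82047848 on the minus strand.
Nop10: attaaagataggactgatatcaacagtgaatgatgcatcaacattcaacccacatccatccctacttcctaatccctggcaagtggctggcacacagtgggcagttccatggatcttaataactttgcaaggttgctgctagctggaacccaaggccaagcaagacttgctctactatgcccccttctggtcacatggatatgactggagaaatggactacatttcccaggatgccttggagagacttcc
Snu13: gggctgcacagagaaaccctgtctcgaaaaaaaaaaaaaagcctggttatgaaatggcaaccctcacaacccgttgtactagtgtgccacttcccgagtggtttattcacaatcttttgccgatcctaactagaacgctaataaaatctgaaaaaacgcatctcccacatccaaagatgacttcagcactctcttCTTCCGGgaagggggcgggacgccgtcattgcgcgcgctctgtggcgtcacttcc
The stretch before Snu13 holds 1 such match and the one before Nop10 holds none, so the 2 genes that rose do not share these letters in these windows.

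Windows of 300 bases, 250 before and 50 after the start, were found in RefSeq for 38 of the 42 genes and numbered 42, since some genes have more than 1. Of these windows, 14 (33.3%) held the ETS core on either strand, against 8.86% of all 32851 windows in the table and 45 of the 113 windows (39.8%) of 121 other factors of ribosome production described further on. The 14 windows belong to 13 of the 38 genes, since overlapping windows of Noc2l hold the same site. All windows in the table were counted, without limiting them to tested genes. The E-box CACGTG, a palindrome bound by Myc and related factors, was in 7 windows (16.7%), against 7.15% of all and 20 (17.7%) of those 113. These 2 motifs cannot overlap each other. In 6 further genes whose expression did not pass the threshold the ETS core lies within 60 bases before the start, and those 60 bases are printed to show its place, with the ETS core and the E-box in capitals. Gar1 is at chr3:129831397-129831456 on the minus strand and the others are on the plus strand, Heatr1 at chr13:12395315-12395374, Nhp2 at chr11:51619713-51619772, Nolc1 at chr19:46075787-46075846, Nop2 at chr6:125131823-125131882 and Utp4 at chr8:106893580-106893639.
Gar1: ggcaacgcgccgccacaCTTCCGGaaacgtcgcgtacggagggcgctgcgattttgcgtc
Heatr1: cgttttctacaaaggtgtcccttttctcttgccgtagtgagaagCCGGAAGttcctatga
Nhp2: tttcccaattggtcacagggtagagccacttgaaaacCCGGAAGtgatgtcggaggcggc
Nolc1: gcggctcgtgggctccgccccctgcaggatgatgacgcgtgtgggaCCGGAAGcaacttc
Nop2: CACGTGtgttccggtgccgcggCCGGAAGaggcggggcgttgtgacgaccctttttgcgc
Utp4: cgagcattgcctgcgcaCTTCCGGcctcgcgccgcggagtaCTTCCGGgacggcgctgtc
Utp4 carries the ETS core 2 times in this stretch, and Nop2 carries both motifs. A match of letters is a description of the sequence and not a measured site.

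The abundant nucleolar proteins held both the highest level and the lowest fold change of the 42 genes. Npm1, nucleophosmin, a chaperone of ribosomal proteins and histones, stood at 992 CPM per kilobase of exon in control libraries, more than any other of the 42. The gene (ENSMUSG00000057113, GRCm39 chr11:33102287-33113206, minus strand) was at 2787, 2627 and 2518 CPM in control and 2895, 2939 and 2963 CPM in knockdown libraries. The groups did not overlap, with the knockdown values close together. The log2 fold change of 0.15 (SE 0.06, 95% interval 0.03 to 0.27) did not pass the threshold (edgeR adjusted p = 0.079), and did so without control replicate 1 (log2 fold change 0.19, adjusted p = 0.0224).

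Ncl encodes nucleolin, which binds the ribosomal RNA precursor. This gene (ENSMUSG00000026234, GRCm39 chr1:86272441-86287122, minus strand) stood at 1080, 971 and 968 CPM in control and 777, 946 and 931 CPM in knockdown libraries. All knockdown values were below all control values, knockdown replicate 1 by far the most. The log2 fold change of -0.19 (SE 0.07, 95% interval -0.34 to -0.03) did not pass the threshold (edgeR adjusted p = 0.0967), was -0.12 with the length correction, and passed it with library-size scaling (-0.24, adjusted p = 0.0233) and without the filter on low counts (-0.20, adjusted p = 0.0357). Without knockdown replicate 1 the log2 fold change of Ncl was -0.10 (edgeR adjusted p = 0.386).

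The log2 ratio of Npm1 to Ncl was 1.37, 1.44 and 1.38 in control and 1.90, 1.64 and 1.67 in knockdown libraries, a description chosen after the values were seen. Of the remaining abundant proteins, Gnl3 (nucleostemin, a nucleolar GTPase) had a log2 fold change of 0.12, Ddx21, an RNA helicase that couples polymerase I transcription to processing, one of 0.05, and Nolc1, a phosphoprotein that associates with snoRNPs, one of 0.00. The control values of Gnl3 ran from 109 to 148 CPM, a coefficient of variation of 15.4%, and enclosed the knockdown values of 128 to 146 CPM.

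None of the 3 genes of the RNA polymerase I machinery passed the threshold. Rrn3, the initiation factor that recruits the polymerase to ribosomal DNA, was the most abundant per kilobase at 12.9 CPM, and stood at 53.8, 52.4 and 60.3 CPM in control and 53.9, 52.1 and 51.4 CPM in knockdown libraries. Control replicate 3 was the highest Rrn3 value and the groups overlapped (log2 fold change -0.08, SE 0.07, edgeR adjusted p = 0.454). Polr1a, the largest and catalytic subunit, stood at 84.7, 87.4 and 88.9 CPM in control and 84.4, 93.6 and 86.7 CPM in knockdown libraries. The knockdown libraries held both the highest and the lowest Polr1a value (log2 fold change 0.02, SE 0.06, edgeR adjusted p = 0.873).

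Polr1b, the subunit that forms the active site together with Polr1a, stood at 29.1, 37.5 and 39.7 CPM in control and 35.8, 30.7 and 32.8 CPM in knockdown libraries. Its knockdown values lay inside the control range, and control replicate 1 was the lowest of the 6. At a control coefficient of variation of 15.8%, the largest of the 42, the interval of its log2 fold change was wide (-0.11, 95% interval -0.32 to 0.11, edgeR adjusted p = 0.531).

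**Figure D4:**
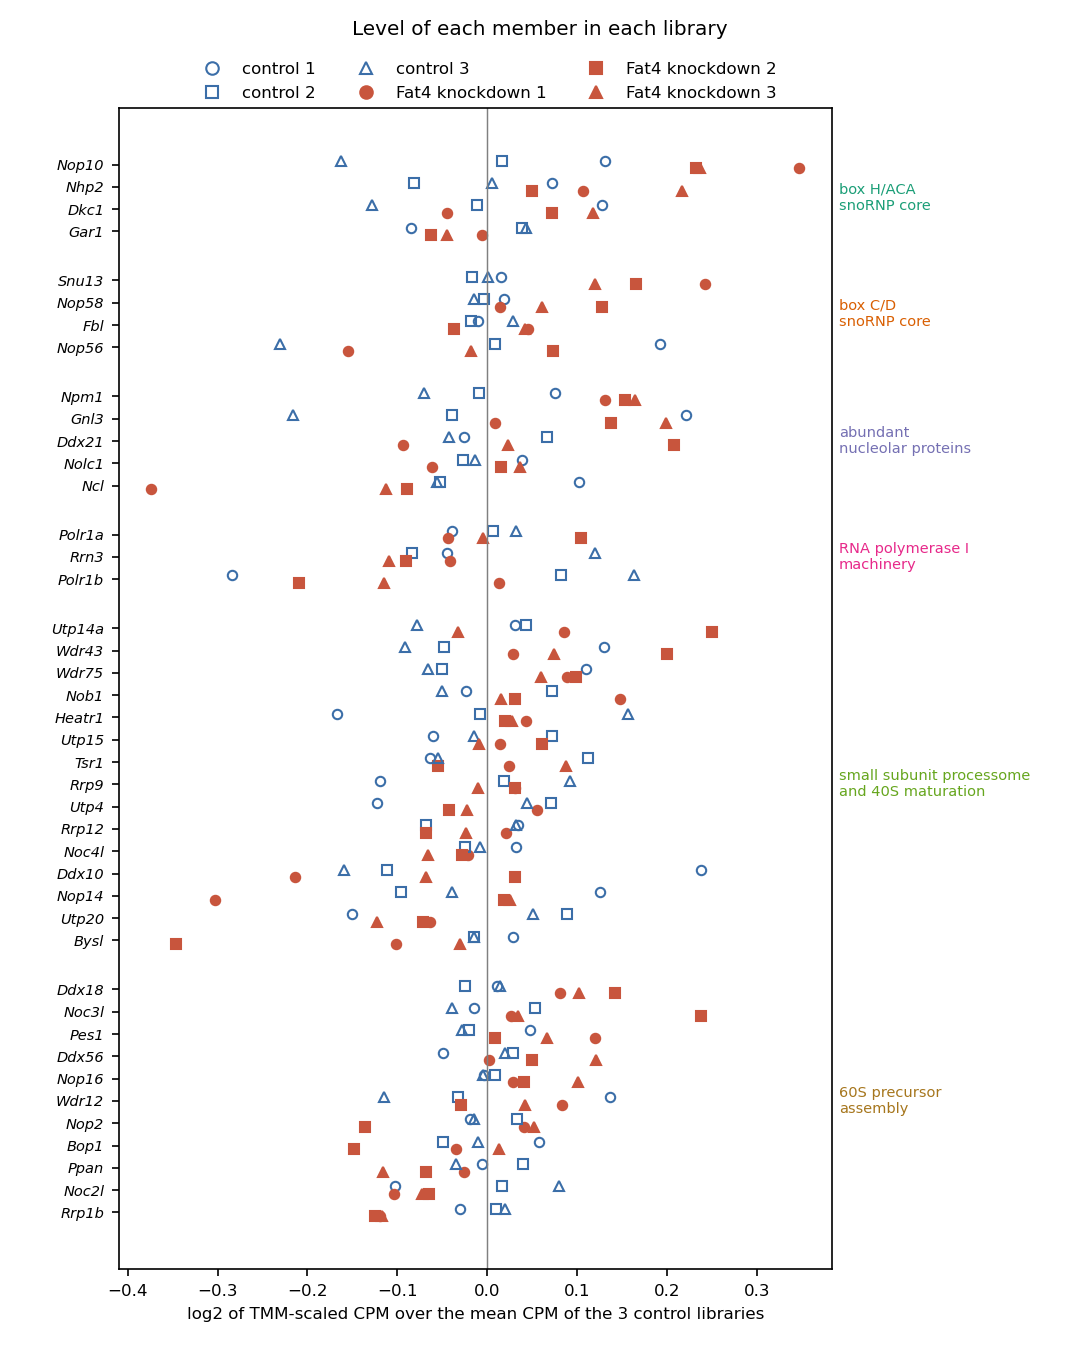
Level of each of the 42 genes in each of the 6 libraries, as log2 of TMM-scaled CPM over the mean of the 3 control libraries (horizontal axis), with open symbols for control and filled symbols for knockdown libraries. The groups overlap for 34 of the 42 genes.

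None of the 15 genes of the small subunit processome and 40S maturation passed the threshold, with log2 fold changes from -0.15 to 0.10 and a median of 0.02. Summed over the 15, the level was 1418 ± 13.3 CPM (SD, n = 3) in control libraries and 1422 ± 2.44 CPM in the knockdown. Utp4, a subunit of the complex that first binds the nascent precursor, was the most abundant per kilobase at 68.4 CPM, and stood at 217, 248 and 243 CPM in control and 245, 229 and 232 CPM in knockdown libraries. Control replicate 1 was the lowest Utp4 value and the groups overlapped (log2 fold change 0.00, SE 0.06, edgeR adjusted p = 0.982). The other subunits of that complex had log2 fold changes of 0.10 (Wdr43), 0.08 (Wdr75), 0.03 (Heatr1) and 0.02 (Utp15).

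Utp14a, which activates the helicase that releases the U3 snoRNA, had the highest change of this role. It stood at 33.0, 33.3 and 30.6 CPM in control and 34.3, 38.4 and 31.6 CPM in knockdown libraries. Of its knockdown values, 2 were above every control value and the third was not (log2 fold change 0.10, SE 0.08, edgeR adjusted p = 0.417). Bysl, which encodes a factor of the 40S precursor, had the lowest change, at 131, 127 and 127 CPM in control and 119, 101 and 125 CPM in knockdown libraries. The groups did not overlap for Bysl, and knockdown replicate 2 was far below the other libraries (log2 fold change -0.15, SE 0.07, edgeR adjusted p = 0.17).

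Rrp9, a protein of the U3 snoRNP, Tsr1, a late 40S factor that resembles a GTPase, and Nob1, the endonuclease that makes the final cut of the small ribosomal RNA, had log2 fold changes of 0.02, 0.02 and 0.07. Those of Rrp12, an export factor, and of Nop14 and Noc4l, which bind each other, were -0.02, -0.08 and -0.04. Ddx10, a helicase, and Utp20, a large scaffold, were at -0.08 and -0.09. Nop14 was lowest in knockdown replicate 1, at 69.7 CPM against 80.5 to 93.8 CPM in control libraries, and Ddx10 was highest in control replicate 1, at 70.3 CPM against 51.4 to 60.9 CPM in the other 5.

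None of the 11 genes of 60S precursor assembly passed the threshold, with log2 fold changes from -0.12 to 0.11 and a median of 0.03. Ddx18, a helicase of early 60S particles, had both the highest level per kilobase of this role, 62.6 CPM, and the highest change. Its values were 157, 153 and 157 CPM in control and 164, 171 and 167 CPM in knockdown libraries, with no overlap between the groups (log2 fold change 0.11, SE 0.06, edgeR adjusted p = 0.194). Rrp1b, a nucleolar protein that also binds protein phosphatase 1, had the lowest change. It stood at 97.4, 100.2 and 100.8 CPM in control and 91.6, 91.2 and 91.7 CPM in knockdown libraries. Its groups were tight and did not overlap (log2 fold change -0.12, SE 0.06, edgeR adjusted p = 0.173), and the change was -0.07 with the length correction.

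Pes1, Bop1 and Wdr12 form the PeBoW complex, needed for maturation of the large ribosomal RNAs, and had log2 fold changes of 0.07, -0.05 and 0.03. The length correction moved that of Wdr12, the gene with the longest exons of the 42, to 0.11 (edgeR adjusted p = 0.348) and left those of Pes1 and Bop1 within 0.01. Noc3l and Noc2l, whose products bind each other, were at 0.10 and -0.08. Nop2, a cytosine methyltransferase of the large ribosomal RNA, was at -0.01, the helicase Ddx56 at 0.06, and Ppan, a factor that joins early 60S particles, at -0.07. Nop16, also a protein of the 60S precursor, was at 0.06, with values of 103, 104 and 103 CPM in control and 105, 106 and 111 CPM in knockdown libraries that did not overlap.

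Over the 42 genes the groups did not overlap for 8, against 34.9% of all tested genes. Of the 8, 5 were higher in the knockdown (Nop10, Snu13, Npm1, Ddx18 and Nop16) and 3 lower (Ncl, Bysl and Rrp1b). The median size of the log2 fold change, sign ignored, was 0.07 for the 42 genes and 0.15 for all tested genes, and the median SE was 0.06 and 0.09. The 42 genes had a median level of 120 CPM and all tested genes one of 20.2 CPM.

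The number of the 42 genes that passed varied with the libraries used, as did the number over all genes. Control replicate 1 held the highest of the 6 values for 13 of the genes and the lowest for 9. Without it 5 genes were higher, Nop10, Snu13, Npm1, Gnl3 and Wdr43, and with the length correction as well Nop58, Wdr75 and Wdr12 joined them, 8 in all. Over all genes 3077 of 13619 changed without control replicate 1, and 1624 of these were higher. With the length correction as well, 1531 of 13619 were higher. Without control replicate 2, without control replicate 3 or without knockdown replicate 1 none passed, and without knockdown replicate 2 only Nop10 did. In these 4 fits 1029 of 13608, 1226 of 13589, 1216 of 13625 and 1165 of 13666 genes changed. Control replicate 3 held the lowest value for 14 of the genes. In none of these fits was any of the 42 genes lower.

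Some of the counts are fractional, and some of the genes overlap others. For 28 of the 42 genes, Nop10, Snu13, Npm1 and Ncl among them, the count was not a whole number in at least 1 library, so their values may include or lack reads of near-identical copies. Exons of 23 overlapped exons of a gene on the opposite strand, and without a stated strand setting reads of such pairs cannot be told apart. Nop10, Snu13 and Npm1 overlapped no other gene, while Ncl overlapped 3 small RNA genes on its own strand and C130036L24Rik on the other. There were 8 snoRNA host genes among the 42, Dkc1, Nop56, Nop58, Ncl, Gnl3, Wdr43, Tsr1 and Ppan, with 23 snoRNA genes inside them. Their median log2 fold change was 0.04, and that of the other 34 was 0.02.

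Beyond the 42 genes, 121 further factors of ribosome production were all tested. Of these, 28 were higher, 4 lower and 89 not past the threshold, with a median log2 fold change of 0.06. Over all tested genes 8.94% were higher and 8.44% lower. With the length correction 27 of the 121 were higher and 2 lower, against 8.32% and 7.05% of all tested genes. With GC and length corrected 23 were higher and 2 lower, against 6.9% and 5.86%. The number higher fell to 13 without control replicate 2, to 16 without control replicate 3 or knockdown replicate 1, and to 18 without knockdown replicate 2. Over all genes 527 of 13608, 628 of 13589, 612 of 13625 and 560 of 13666 were higher in these fits, in the same order. With library-size scaling 19 of the 121 were higher and 6 lower, against 853 and 1740 of all 13372 tested genes. By role the higher genes were 5 of 12 of the RNA polymerase I machinery, 9 of 42 of the small subunit processome and 40S factors, 11 of 44 of 60S assembly, 1 of 9 of snoRNP assembly and 2 of 14 of the RNA exosome and its partners. All 4 lower genes belonged to 60S assembly. The difference between these 121 genes and the 42 was not tested.

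**Figure D5:**
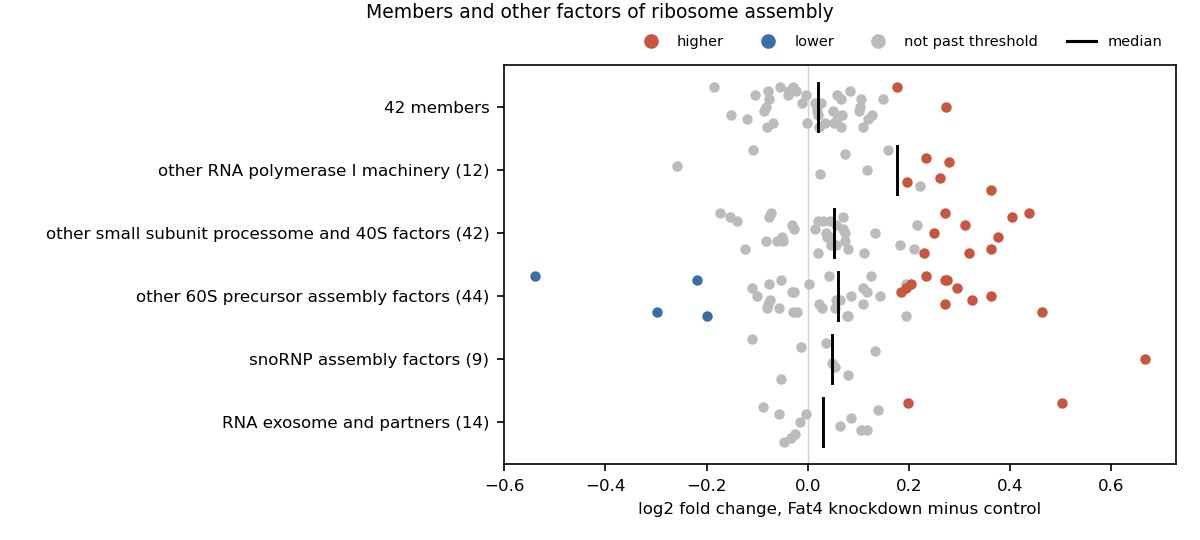
Log2 fold change (horizontal axis, knockdown minus control) of the 42 genes and of 121 other factors in 5 roles, 1 point per gene, with red and blue for adjusted p under 0.05 and black bars for medians. The 42 genes show 2 red points and no blue, and the other factors 28 red points and 4 blue, the latter all in 60S assembly.

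The RNA polymerase I genes that rose were Polr1d, Polr1e, Polr1f, Polr1h and Taf1d, with log2 fold changes of 0.26, 0.28, 0.36, 0.23 and 0.20, whereas the large subunits Polr1a and Polr1b did not pass the threshold. Of these 5, only Polr1f passed it in all 6 fits without 1 library, and Polr1h lost its call with GC and length corrected (edgeR adjusted p = 0.349). The largest rises among the 121 were of Znhit3, a zinc finger protein of box C/D snoRNP assembly (24.7 ± 5.14 to 39.0 ± 5.54 CPM with SD and n = 3, at a log2 fold change of 0.67, edgeR adjusted p = 0.0157), and of C1d, an exosome partner (97.6 ± 14.8 to 138 ± 10.3 CPM, log2 fold change 0.50, adjusted p = 0.00323). Znhit3 missed the threshold without knockdown replicate 1 (edgeR adjusted p = 0.055). Nip7, a 60S factor, and Fcf1, a nuclease-like protein of the small subunit processome, followed at 0.46 and 0.44. The largest fall was of Rrs1, which helps load the 5S particle into the 60S precursor (158 ± 3.96 to 108 ± 1.70 CPM with SD and n = 3, at a log2 fold change of -0.54, edgeR adjusted p = 4.5e-05).

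Pelp1, Wdr18 and Mdn1, which act together on late 60S precursors, fell by 0.30, 0.22 and 0.20 on the log2 scale. The calls on Wdr18 and Mdn1 were lost with the length correction (edgeR adjusted p = 0.0943 and 0.319), where the log2 fold change of Wdr18 was -0.19 and that of Mdn1 -0.09. They were kept in 2 (Wdr18) and 1 (Mdn1) of the 6 fits without 1 library. The 28 higher genes had a median exon length of 3266 bases and a median GC content of 44.2%, the 4 lower genes 4783 bases and 54.7%, and the other 89 genes 3974 bases and 50.3%.

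Myc averaged 68.4 ± 2.77 CPM (SD, n = 3) without and 71.7 ± 6.87 CPM with the knockdown, and its log2 fold change of 0.07 did not pass the threshold (95% interval -0.08 to 0.22, edgeR adjusted p = 0.57). Among 9 tested genes of the Myc network none was higher and 3, Mycn, Mga and Mxi1, were lower. The shares of all tested genes were 8.94% (higher) and 8.44% (lower). Only Mycn was called in all 6 fits without 1 library, whereas Mga was called in 2 and Mxi1 in 4 of them. DESeq2 called neither of the latter (adjusted p = 0.0778 for Mga and 0.087 for Mxi1), and the length correction ended the call on Mga (edgeR adjusted p = 0.0954). Of 10 proliferation markers 2 were higher, Pcna and Cdk1, and none lower, against the same shares of all tested genes. The others did not pass the threshold. Of those, Ccnb1 had a positive log2 fold change (0.10). The rest were negative: Top2a (-0.16), Ccnd1 (-0.14), Mki67 (-0.14), Aurkb (-0.12), Mcm5 (-0.11), Mcm2 (-0.04) and Bub1 (-0.01). Scaled by library totals alone, the 10 markers summed to 1831 to 1911 CPM in control and 1801 to 1869 CPM in knockdown libraries. With TMM-scaled values the knockdown sums all lay above the control sums, so their order depends on the scaling. The call on Pcna held in all 6 fits without 1 library and that on Cdk1 only without control replicate 1. Cdk1 was also not called with GC and length corrected (edgeR adjusted p = 0.059), with library-size scaling (0.146) or by DESeq2 (0.0506).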

How the data were processed

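Messenger RNA of 6 MCEC libraries was sequenced as tagmented cDNA, per the labels' protocols. Tools listed in the submitters' processing notes are STAR 2.7.11, fastp 0.24.0, SAMtools 1.22.1, FastQC 0.12.1 and MultiQC 1.32, with the genome build GRCm39. Which program counted the reads, with which strand setting and annotation, was not given in the sources used here. Values as deposited are estimated counts per gene, of which 29.0% of the nonzero ones are not whole (tolerance 1e-06), and the deposited CPM equals each count over the library's total.

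Counts were rounded and 92 spike-in entries left out. The filter was filterByExpr, the scaling TMM and the test that of edgeR 4.0.16 (glmQLFit with robust estimation, glmQLFTest) in R 4.3.3, control against knockdown without a block, with Benjamini-Hochberg adjustment over all 13372 tested genes. The biological coefficient of variation was 6.31%. CPM in the text uses TMM-scaled library sizes. Exon length is the deposited value, the merged length of all exons of a gene, and levels per kilobase use it. It can be longer than a single transcript (1845 against 790 bases for Nop16), so the order of genes per kilobase depends on this choice. The length correction fits, with mgcv 1.9-3, a smooth trend per library on log exon length and uses it as an offset. GC content came from GENCODE M21 transcripts matched by gene identifier, for 95.6% of tested genes. Promoter windows are from RefSeq on GRCm38.p6.

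The 42 genes and all lists were chosen with earlier results of these data known. Values in every library are given for Fat4, as a check of the labels, for genes past the threshold, and for the most abundant per kilobase and the highest and lowest change of each role; of the 121 other factors up to 4 rises and 4 falls are named, among genes whose groups do not overlap, and further names were chosen after their values were seen. Other settings were library-size, upper-quartile and RLE scaling, dropping ribosomal protein and mitochondrial genes, limma-voom (limma 3.58.1), DESeq2 1.42.0, other filters, rounding down, a replicate block and each library left out. Chosen after seeing the data were GENCODE transcript lengths, the length correction without control replicate 1, and edgeR without robust estimation. The workflow was tested on simulated data. Figures were drawn with matplotlib 3.10.9.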

Additional observations from a re-analysis of the deposited data

How the results depend on the processing

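With 3 libraries per group, most changes of the 42 genes were near the size of their errors, and where exon length or GC content moves with the groups it cannot be told apart from the knockdown. Nop10 kept its direction under all 22 other settings and its call under 18, and Snu13 its direction under all 22 and its call under 15. Both calls were lost with GC and length corrected, and that of Snu13 also with library-size scaling and without the filter on low counts (adjusted p = 0.101). The cause was not tested. Signs of values near 0 (Fbl, Polr1a, Utp4 and Nop56) changed between settings.

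The number of genes changed was 1498 by DESeq2, and 1029 to 3077 with 1 library left out, lowest without control replicate 2 and highest without control replicate 1. The number of the 42 genes higher was 0 with GC and length corrected, and 1 with library-size scaling and without the filter (where Ncl was the 1 gene lower in each). It was 3 with GENCODE lengths (Nop10, Nop58 and Snu13), where 1008 of all 13372 tested genes were higher. It was 8 with the length correction without control replicate 1, and 0 to 5 with 1 library left out. The median log2 fold change of the 42 genes was 0.0337 with the length correction, 0.0377 with GC and length corrected, 0.0277 with RLE scaling, 0.0336 with upper-quartile scaling, -0.0368 with library-size scaling, 0.0276 by DESeq2, 0.0081 without the filter, 0.0405 with GENCODE lengths and 0.0404 with the length correction without control replicate 1. The number of the 121 other factors lower was 2 in place of 4 with the length correction, GC and length corrected, RLE scaling, upper-quartile scaling, DESeq2, limma-voom, GENCODE lengths and edgeR without robust estimation, and 6 with library-size scaling, where 19 were higher. With 1 library left out 13 to 33 of these 121 were higher and 2 to 5 lower.

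Same-numbered control and knockdown libraries deviated from their group means with correlations of -0.20, -0.16 and 0.14 over 8668 genes. Control replicate 1 correlated best with knockdown replicate 2 (0.26). Deviations from a mean of only 3 libraries are tied to each other, so these correlations cannot decide whether same-numbered libraries are paired. With a replicate block 2001 genes changed, Nop10 and Snu13 were the 2 of the 42 that passed, their median was 0.02, and 27 of the 121 other factors were higher and 2 lower. With the block and the length correction in 1 fit the median was 0.0342, and 26 were higher and 2 lower.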
